A study of Mus musculus with 14 samples.

Results

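Sca1-positive, Kit-negative bone marrow cells of 3 old tumour-bearing mice were compared with those of 5 old cancer-free mice, which takes in 8 of the 14 arrays of the series. The arrays were assigned to these groups by their sample titles. All mice were female and of the NCR-NU strain, an athymic nude strain that makes few mature T cells. The old cancer-free mice carried a Matrigel control, and the old tumour-bearing mice carried a primary tumour matched in size to those of the young mice. The other 6 arrays hold 3 young cancer-free mice with the same Matrigel control and 3 young tumour-bearing mice, and they enter where the tumour effect of old mice was set against that of young mice. The labels call the arrays biological replicates, with 1 array a mouse as far as the titles show, and give neither the age in weeks nor the tumour cell line. The comparison asks how marrow cells of this phenotype differ in an old host that bears a tumour from those of an old host that does not.

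Sca1, the product of Ly6a, marks stem cells when it occurs together with the stem cell factor receptor Kit. Without Kit it is carried mostly by lymphoid cells of the marrow, among them B lineage and plasma cells, T cells, natural killer cells, innate lymphoid cells and plasmacytoid dendritic cells. Marrow cells of this phenotype are also known as a source of granulin, the secreted growth factor encoded by Grn, in hosts of some tumours. The sort was therefore expected to hold a mixture, and a level measured over the mixture depends both on which cells were sorted and on what each of them transcribed. Fewer cells of a type and less RNA per cell cannot be told apart in such samples.

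Values are log2 levels of the deposited normalised intensities, a difference is the mean of the old tumour-bearing arrays minus the mean of the old cancer-free arrays, and each difference is given ± SE from a limma fit. Replicates and controls are those of the old mice unless young ones are named. Of 22180 genes with a probe of their own, 13805 lay above the median of the whole table, 3.88, on at least 3 arrays and were tested. Below that floor a level carries little information, and a difference against a group mean under it is not an exact size. The 14 array medians lay between 3.81 and 3.93. Old tumour-bearing replicates 2 and 3 had the lowest mean correlation with the other arrays among the old mice, at 0.910 and 0.907, against 0.920 to 0.930 for the other 6 old arrays. The number of arrays limits the precision.

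Genes of the sort gate were examined first. Ptprc, which encodes the pan-leukocyte surface protein CD45, had levels of 10.74, 10.74, 10.85, 11.36 and 11.24 in old cancer-free replicates 1 to 5. In old tumour-bearing replicates 1 to 3 it had levels of 10.55, 10.61 and 10.53. The 3 tumour-bearing arrays lay just below all 5 controls, with a difference of -0.42 ± 0.17 that did not pass correction (adjusted p = 0.467 in limma). Kit, whose protein the gate removed, had low but detectable levels of 5.47, 5.25, 5.96, 5.49 and 5.35 in cancer-free and 5.69, 6.16 and 6.16 in tumour-bearing mice. Its groups overlapped, the difference being 0.50 ± 0.27 (adjusted p = 0.573 in limma). Ly6a itself was not analysed here.

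No gene passed an adjusted p of 0.05 for the tumour in old mice in limma. The smallest adjusted p was 0.0801, for B3gnt5. At an unadjusted p under 0.05 there were 580 genes with a higher level in tumour-bearing mice, 4.20% of the genes tested, and 768 with a lower level, 5.56%. Of the 292 genes with a difference beyond 1 on the log2 scale in either direction, 217 had the lower and 75 the higher level in tumour-bearing mice. The median difference over all genes was 0.01, with 51.3% above 0 and 48.7% below 0. The median absolute difference, 0.21, was close to the median SE, 0.24. Leaving out control replicate 3, control replicate 5 or tumour-bearing replicate 1 gave 3, 1 and 4 genes past the adjusted threshold. B3gnt5 was among them in the first 2 cases, together with Pbx2 and Zmym1 in the first, while Adgrl2, B430306N03Rik, Csnk1g1 and Isg20l2 passed in the last. Zmym1, B430306N03Rik, Csnk1g1 and Isg20l2 were named after their values were seen.

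**Figure D1:**
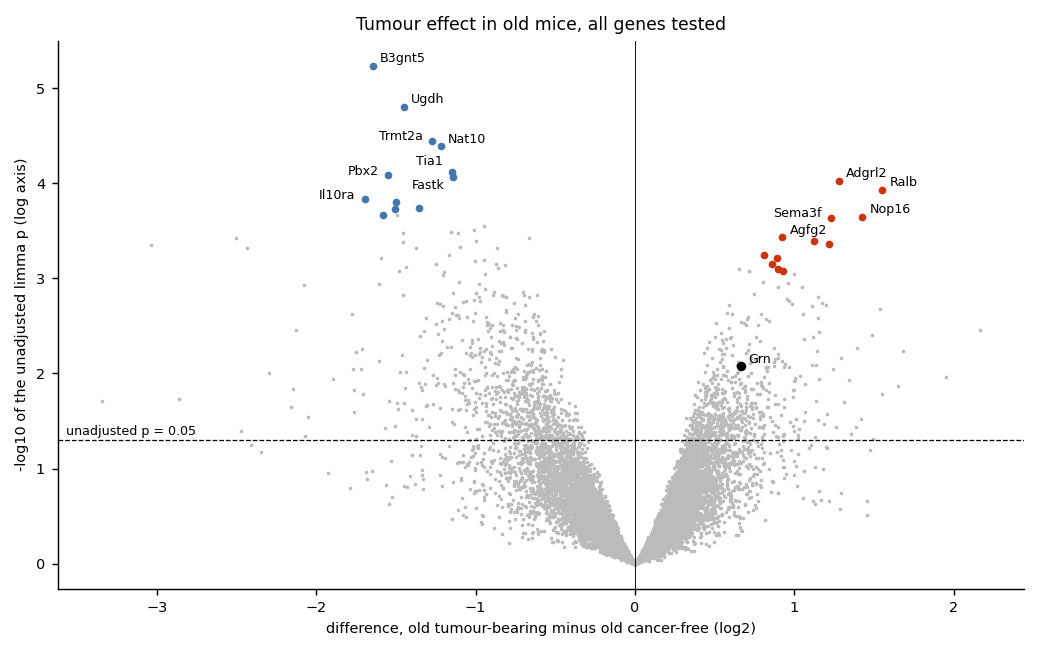
Each point is 1 of the 13805 genes tested, with its log2 difference between old tumour-bearing and old cancer-free mice on the x axis and -log10 of the unadjusted limma p on the y axis. The dashed line marks an unadjusted p of 0.05. The 12 genes of smallest p on each side are coloured, Grn is black, and B3gnt5 stands highest, on the lower side, with an adjusted p of 0.0801.

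The 12 genes with the smallest p on the lower side had their 3 tumour-bearing arrays below all 5 cancer-free arrays, as 3.04% of all genes tested did. None passed correction, and they were picked for this difference, so their separation is a description. B3gnt5, the glycosyltransferase that starts the lacto-series and neolacto-series chains of glycosphingolipids, had levels of 6.19, 6.28, 5.73, 6.34 and 5.35 in cancer-free and 4.19, 4.62 and 4.19 in tumour-bearing mice. Its lowest control, replicate 5, was still above the highest tumour-bearing array. The difference was -1.65 ± 0.23, a 3.13-fold lower level, with a 95% confidence interval from -2.14 to -1.15 (adjusted p = 0.0801 in limma). In young mice the same gene differed by -0.17 ± 0.26.

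Ugdh, the dehydrogenase that makes UDP-glucuronate, the building block of glycosaminoglycans, came next. Its levels were 6.35, 5.45, 5.80, 6.09 and 6.18 in cancer-free and 4.84, 4.62 and 4.12 in tumour-bearing mice (-1.45 ± 0.22, adjusted p = 0.108 in limma). All 6 young arrays of Ugdh lay within the range of the old controls, and its difference in young mice was 0.10 ± 0.25. Hmgcs1, the synthase that feeds the mevalonate pathway of cholesterol synthesis, had levels of 6.49, 6.26, 5.76, 5.73 and 6.49 against 5.11, 4.23 and 4.58. Its highest tumour-bearing array, replicate 1, lay well below its lowest control (-1.51 ± 0.30, adjusted p = 0.190 in limma).

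Trmt2a, a tRNA methyltransferase, had levels of 6.97, 7.24, 6.64, 6.90 and 7.18 against 5.71, 5.40 and 6.03 (-1.27 ± 0.21, adjusted p = 0.141 in limma). Nat10, a nucleolar RNA acetyltransferase, had levels of 5.51, 5.65, 5.61, 6.08 and 5.55 against 4.83, 4.46 and 4.09 (-1.22 ± 0.21). The controls of both genes were tight, apart from the high Nat10 value of replicate 4. Tia1, an RNA-binding protein of stress granules, had levels of 6.11, 6.30, 6.41, 6.32 and 6.45 against 4.95, 5.17 and 5.39 (-1.15 ± 0.21). Fastk, of a family of RNA-binding kinase-like proteins, differed by -1.14 ± 0.21, with controls from 6.60 to 7.59 and tumour-bearing arrays from 5.80 to 6.02. Pbx2, a homeodomain partner of Hox proteins, differed by -1.55 ± 0.28, from 5.08 to 6.43 in cancer-free and from 3.93 to 4.74 in tumour-bearing mice.

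Il10ra, the ligand-binding chain of the interleukin 10 receptor, had levels of 7.12, 7.60, 7.28, 8.34 and 8.16 in cancer-free and 6.58, 6.10 and 5.33 in tumour-bearing mice (-1.70 ± 0.33, adjusted p = 0.190 in limma). Tumour-bearing replicate 3 was the lowest of them. Il2ra, the alpha chain of the interleukin 2 receptor found on regulatory and activated T cells and on innate lymphoid cells, had levels of 7.41, 7.46, 7.96, 6.92 and 7.69 against 5.96, 6.61 and 5.83 (-1.35 ± 0.27, adjusted p = 0.190 in limma). It was the single group 2 innate lymphoid cell marker of 8 tested with an unadjusted p under 0.05 on the lower side, and that list had a median of -0.14. Naip6, an inflammasome sensor, and Trim12c, a tripartite motif protein, completed the 12 at -1.50 ± 0.29 and -1.58 ± 0.32. Both have tumour-bearing means under the floor and belong to families of near-identical genes, so their probes may read more than 1 family member.

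Of the genes with a higher level in tumour-bearing mice, the 12 with the smallest p likewise had no overlap between the groups, as 3.11% of all genes did. Adgrl2, the adhesion receptor latrophilin 2, had levels of 4.44, 4.42, 4.41, 5.12 and 4.63 in cancer-free and 5.29, 6.09 and 6.27 in tumour-bearing mice (1.28 ± 0.24, adjusted p = 0.162 in limma). Tumour-bearing replicate 1 stood just above control replicate 4, and the other tumour-bearing arrays stood well apart. Ralb, a small GTPase of vesicle traffic and survival signalling, had levels of 6.15, 5.02, 6.20, 6.43 and 5.50 against 7.25, 7.46 and 7.51 (1.55 ± 0.29, a 2.93-fold higher level, adjusted p = 0.180 in limma). Its 3 tumour-bearing arrays were close together while its controls spread over more than 1 log2 unit. Nop16, a nucleolar factor of the large ribosomal subunit, had levels of 6.16, 6.44, 5.66, 6.76 and 6.27 against 8.03, 7.84 and 7.18 (1.42 ± 0.29). Sema3f, a secreted semaphorin, had levels of 5.05, 4.71, 4.61, 4.43 and 4.86 against 5.74, 6.12 and 6.02 (1.23 ± 0.25).

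Among the other higher genes, Tnfrsf13b encodes TACI, the receptor of B lineage cells for the survival factors BAFF and APRIL. Its levels were 6.84, 6.66, 6.14, 6.70 and 6.64 in cancer-free and 7.56, 7.68 and 7.25 in tumour-bearing mice (0.90 ± 0.21, adjusted p = 0.223 in limma). Zbtb20, a zinc finger repressor with a known role in plasma cells, had levels of 7.0, 7.27, 6.89, 7.25 and 7.46 against 8.01, 8.22 and 7.96 (0.89 ± 0.20). Lgmn, the lysosomal protease legumain, had levels of 6.03, 6.18, 6.06, 5.70 and 5.94 against 6.44, 7.29 and 7.0 (0.93 ± 0.22). In young mice Lgmn also differed by 0.93, ± 0.24 (unadjusted p = 0.00203), and it was the only gene of these 24 with an unadjusted p under 0.05 in both ages. The remaining 5 were Zfyve21, an endosomal FYVE-domain protein (1.12 ± 0.24), Adssl1, an enzyme of AMP synthesis (1.22 ± 0.27), Agfg2 (0.92 ± 0.20), Wdr11 (0.86 ± 0.20) and the membrane protein Grina (0.81 ± 0.18). Adssl1, Wdr11 and Tnfrsf13b had young cancer-free levels above those of the old controls, and their old tumour-bearing arrays lay near the young cancer-free ones. Ralb also had young cancer-free levels above the old controls, with its old tumour-bearing arrays higher still. On the lower side, Trmt2a, Nat10, Tia1 and Naip6 had young cancer-free levels below those of the old controls.

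**Figure D2:**
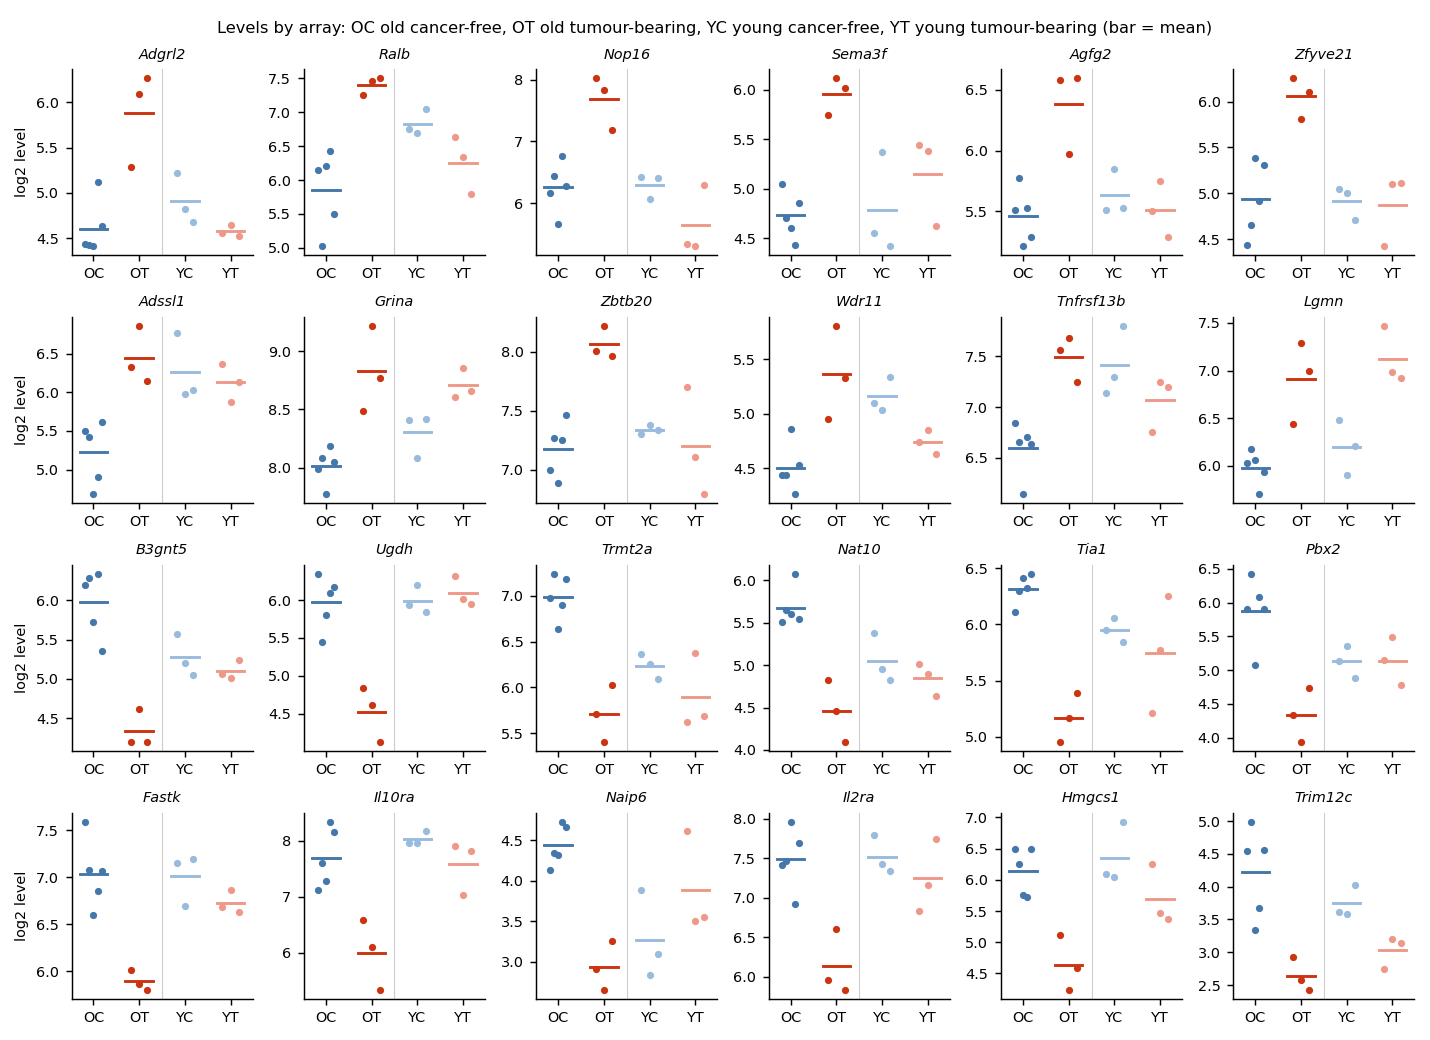
The log2 level of each of 24 genes is plotted for every array, with 5 old cancer-free (OC), 3 old tumour-bearing (OT), 3 young cancer-free (YC) and 3 young tumour-bearing (YT) mice and a bar at each group mean. The first 12 panels are the higher and the last 12 the lower genes of smallest p, and in every panel the OT points lie wholly on one side of the OC points. The y axes differ between panels and do not start at 0.

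Whether the tumour effect of old mice differed from that of young mice was tested gene by gene in the same fit. No gene passed an adjusted p of 0.05 in limma, the smallest being 0.736, and 610 genes (4.42%) had an unadjusted p under 0.05, 2.57% above and 1.85% below 0. The 5 with the smallest p were Rlf, Ralb, Naip6, Nop16 and Klk8. Rlf, a zinc finger protein, had levels of 6.13, 6.28, 6.13, 6.06 and 5.81 in old cancer-free and 5.58, 5.44 and 5.28 in old tumour-bearing mice (-0.65 ± 0.19). In young mice it stood at 5.84, 5.64 and 5.61 without and 6.48, 6.07 and 6.86 with a tumour (0.77 ± 0.21), the opposite direction, and the difference of the effects was -1.42 ± 0.28 (adjusted p = 0.736 in limma). Ralb and Nop16 were on the higher side in old and on the lower side in young mice, at -0.58 ± 0.33 and -0.66 ± 0.32 in the young. Klk8, a serine protease, owed its place to the young mice (-1.63 ± 0.33), since its old groups overlapped (0.47 ± 0.30). Across all genes the old and the young difference had a Pearson correlation of 0.19 and a Spearman correlation of 0.19. These describe genes, which are not independent replicates. The comparisons share no arrays, but the fit gave each gene a common estimate of spread for both ages. Of the 580 genes on the higher side in old mice, 24 (4.14%) were also on the higher side in young mice, where 2.10% of all genes were. They made up 8.28% of the 290 genes on the higher side in young mice, where 4.20% of all genes were on the higher side in old mice. Of the 768 on the lower side in old mice, 63 (8.20%) were also on the lower side in young mice, where 3.30% of all genes were. They made up 13.8% of the 455 genes on the lower side in young mice, where 5.56% of all genes were on the lower side in old mice. A gene with a small common spread more easily has a small p in both ages. The shared counts therefore cannot show by themselves that the tumour effects were alike, and no conclusion is drawn from them.

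Granulin was among the genes of interest in these cells. Grn had levels of 10.19, 10.37, 9.71, 9.76 and 10.03 in old cancer-free and 10.64, 10.83 and 10.57 in old tumour-bearing mice. The 3 tumour-bearing arrays lay above all 5 controls, of which replicates 1 and 2 came nearest. The difference was 0.67 ± 0.22, a 1.59-fold higher level, with an unadjusted p of 0.00839 that did not pass correction (adjusted p = 0.395 in limma). In young mice the difference was 0.32 ± 0.24, with arrays at 10.52, 10.55 and 10.85 without and 11.47, 10.58 and 10.81 with a tumour, and the effects of the ages were not told apart (0.35 ± 0.33, unadjusted p = 0.301 in limma). Of 7 genes whose products bind or process granulin, 6 had a difference above 0, where 51.3% of all genes did, with a median of 0.14. None had an unadjusted p under 0.05. In young mice 3 of the 7 were above 0 (background 47.2%), with a median of -0.13. The 7 genes include Sort1, the receptor that clears progranulin (0.26 ± 0.29), Tmem106b, a lysosomal membrane protein (0.42 ± 0.27), and the tumour necrosis factor receptor Tnfrsf1b (-0.49 ± 0.35). The 12 tested genes of secreted factors that can support tumours, Grn among them, split into 6 above and 6 below 0. Csf3, the neutrophil growth factor (0.49 ± 0.20), joined Grn with an unadjusted p under 0.05, although its cancer-free mean was under the floor. Csf1, the macrophage growth factor, was at -0.46 ± 0.23.

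Genes of antigen presentation by MHC class II had lower mean levels in old tumour-bearing mice in every tested member, and none passed correction. MHC class II molecules carry peptides to helper T cells and are made by B cells, dendritic cells and macrophages under the control of the transactivator Ciita. H2-DM loads the peptides and H2-O restrains H2-DM. Of 11 listed genes 9 were tested, and all 9 had a difference below 0, where 48.7% of all genes did. Of these 4 had an unadjusted p under 0.05 on the lower side, against 5.56% of all genes, and the median was -0.25. The mean level of the 9 genes was 6.07, 6.31, 6.36, 5.68 and 5.96 on the cancer-free and 5.39, 5.65 and 5.30 on the tumour-bearing arrays, without overlap. Of the markers of mature B cells, which make class II molecules, 8 of 10 were below 0 as well, with a median of -0.47 and list means of 6.65 to 7.19 on the control and 6.11 to 6.68 on the tumour-bearing arrays. Their part in the class II levels was not tested.

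H2-Oa, the alpha chain of H2-O, had levels of 6.62, 6.23, 6.95, 6.08 and 6.51 in cancer-free and 5.22, 5.71 and 4.15 in tumour-bearing mice (-1.45 ± 0.32, unadjusted p = 0.000415, adjusted p = 0.197 in limma). H2-Eb2, a class II beta chain, had levels of 6.71, 6.52, 6.18, 6.12 and 6.98 against 5.35, 5.49 and 5.57 (-1.03 ± 0.32, adjusted p = 0.357 in limma). For both genes all tumour-bearing arrays lay below all controls. H2-Aa, the classical alpha chain, had levels of 6.54, 6.96, 6.66, 5.75 and 6.28 against 5.74, 5.88 and 4.44 (-1.08 ± 0.40), where control replicate 4 lay within the tumour-bearing range. H2-DMb2, a beta chain of the peptide loader, had levels of 6.52, 7.71, 7.40, 5.85 and 5.86 against 4.59, 6.27 and 5.24 (-1.30 ± 0.50), again with overlap. The other 5 genes, named to complete the list, had no unadjusted p under 0.05. They were H2-DMa (-0.25 ± 0.23), H2-Eb1 (-0.20 ± 0.21), Ciita itself (-0.16 ± 0.20), H2-Ob (-0.12 ± 0.20) and H2-Ab1 (-0.08 ± 0.23). Without tumour-bearing replicate 3 the number with an unadjusted p under 0.05 was 2. When tumour-bearing replicate 1, tumour-bearing replicate 2 or control replicate 3 was left out, 1 of the 9 genes was above 0. In young mice 7 of the 9 were below 0, against 52.8% of all genes, with a median of -0.13. For the difference between the ages 2 of the 9, H2-Eb2 and H2-Oa, had an unadjusted p under 0.05 (background 4.42%). MHC class I presentation, which every nucleated cell carries, had 6 of 9 genes above 0, none with an unadjusted p under 0.05, and a median of 0.05, which was -0.01 without tumour-bearing replicate 2.

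Class II promoters share short elements just before the start of transcription, of which the Y box, an inverted CCAAT sequence bound by the factor NF-Y, is the most easily recognised. The letters CTGATTGG were searched on both strands in RefSeq promoters of GRCm38.p6, from 250 bases before to 50 bases after each start. They were found in 4 of the 9 promoters that the table holds for 8 of the class II genes, and in 1346 of all 32851 promoters (4.10%). The reference is not the NCR-NU genome. The stretches below, of 130 bases each and in the direction of the gene, are shown because 3 of these genes are among the 4 of smallest p in the list and H2-Eb1 is not. Capitals mark the Y box.
H2-Aa, chr17:34287824-34287953, minus strand: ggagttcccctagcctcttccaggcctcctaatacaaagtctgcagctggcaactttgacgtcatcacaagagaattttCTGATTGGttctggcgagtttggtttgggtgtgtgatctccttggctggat
H2-Eb1, chr17:34305737-34305866, plus strand: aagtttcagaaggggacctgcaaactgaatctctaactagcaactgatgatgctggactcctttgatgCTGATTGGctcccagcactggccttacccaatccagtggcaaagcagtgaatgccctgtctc
H2-Eb2, chr17:34325545-34325674, plus strand: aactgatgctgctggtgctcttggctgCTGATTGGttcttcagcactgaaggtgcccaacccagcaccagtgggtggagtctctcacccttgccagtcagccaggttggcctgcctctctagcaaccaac
H2-Oa, chr17:34092249-34092378, plus strand: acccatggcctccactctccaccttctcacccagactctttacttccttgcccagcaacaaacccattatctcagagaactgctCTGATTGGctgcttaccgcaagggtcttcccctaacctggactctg
All 4 matches were on the strand of the gene, with their first base 51, 62, 103 and 46 bases before the start in the order given. A match is a description of these letters and no evidence of binding, and H2-Eb1 carries it with a difference of -0.20 ± 0.21.

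**Figure D3:**
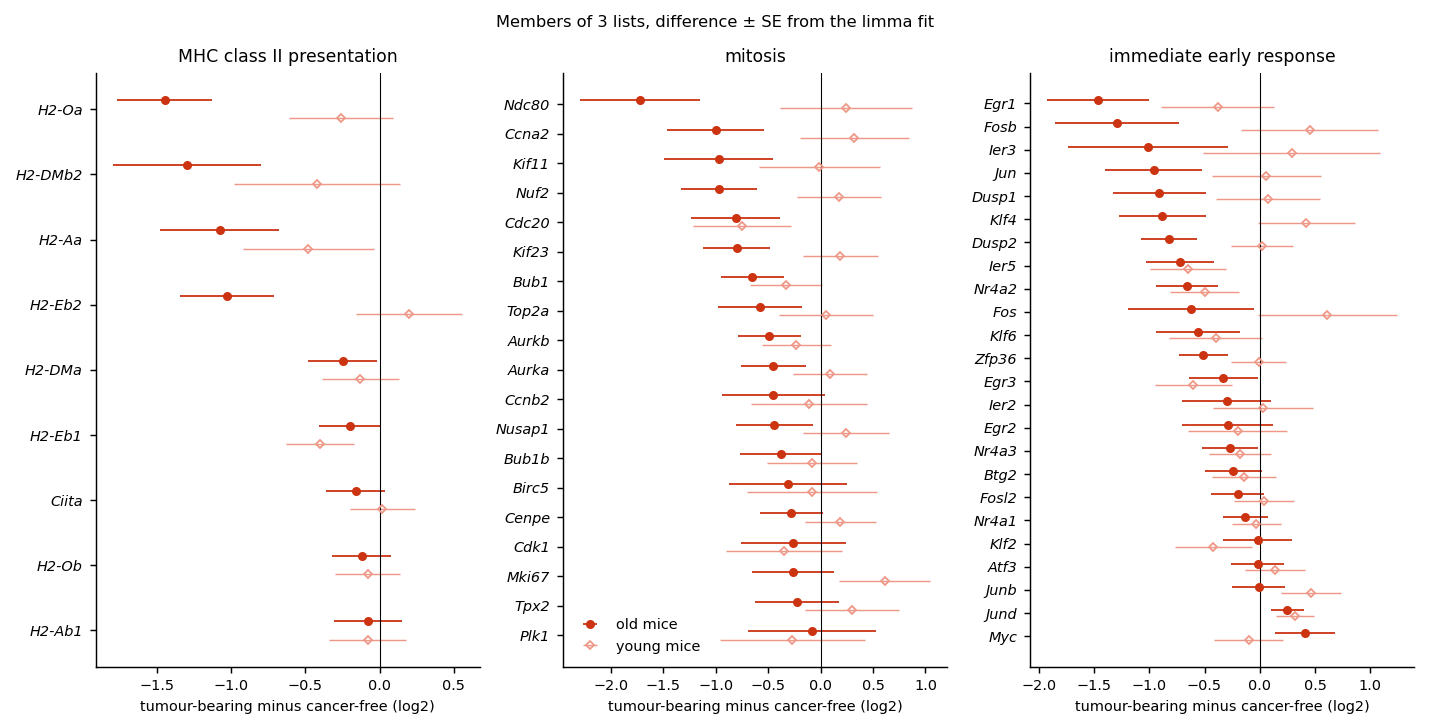
The log2 difference ± SE from the limma fit is shown for each tested member of the MHC class II, mitosis and immediate early lists, filled for old and open for young mice. All 9 class II and all 19 mitosis genes lie below 0 in old mice, and 22 of the 24 immediate early genes do. In young mice 10 of the 19 mitosis and 12 of the 24 immediate early genes lie above 0, as 47.2% of all genes do.

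Markers of natural killer and cytotoxic cells had a difference below 0 in 12 of 13 tested genes (background 48.7%), with a median of -0.47. Of these, 5 had an unadjusted p under 0.05 on the lower side (background 5.56%) and none on the higher side. The list mean was 8.61, 8.51, 8.90, 8.88 and 8.76 in cancer-free and 8.39, 8.06 and 8.18 in tumour-bearing mice, without overlap. Xcl1, a chemokine of natural killer and CD8 T cells that draws dendritic cells, had levels of 10.57, 10.52, 10.03, 10.66 and 10.90 against 9.79, 9.85 and 8.81 (-1.05 ± 0.29, adjusted p = 0.295 in limma). All tumour-bearing arrays lay below all controls. Klrk1, the activating receptor NKG2D, had levels of 8.89, 9.67, 9.81, 10.36 and 9.89 against 9.26, 8.45 and 8.40 (-1.02 ± 0.30, adjusted p = 0.330 in limma), with tumour-bearing replicate 1 above control replicate 1. Ncr1, the natural killer receptor NKp46, differed by -0.90 ± 0.36 and the receptor gene Klre1 by -0.85 ± 0.34. Without control replicate 4 or 5, or without tumour-bearing replicate 2 or 3, the number with an unadjusted p under 0.05 was 3, and without control replicate 3 the median was -0.26. The young mice had 12 of 13 of these genes below 0 as well, with a median of -0.39, and no member had an unadjusted p under 0.05 for the difference between the ages.

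B lineage lists differed in direction. Of 10 mature B cell markers 8 were below 0 (background 48.7%), with a median of -0.47. On the lower side 2 had an unadjusted p under 0.05 (background 5.56%). Without tumour-bearing replicate 2 the median was -0.27. Cd22, an inhibitory coreceptor of B cells, had levels of 5.96, 7.01, 6.58, 7.04 and 6.67 in cancer-free and 5.93, 5.34 and 5.02 in tumour-bearing mice (-1.22 ± 0.32, adjusted p = 0.279 in limma). Its groups did not overlap, though control replicate 1 and tumour-bearing replicate 1 were nearly equal. Cr2, the complement receptor of mature B cells, differed by -1.24 ± 0.36 with a tumour-bearing mean under the floor. Fcer2a (-0.84 ± 0.50) and Fcmr (-0.66 ± 0.41), receptors for IgE and IgM, had overlapping groups. The B cell progenitor list had 4 of 8 markers above and 4 below 0, with a median of 0.06, or -0.09 without control replicate 4. Its adaptor Blnk had levels of 8.91, 8.66, 8.50, 8.26 and 8.74 against 9.01, 9.31 and 9.07 (0.52 ± 0.22, adjusted p = 0.482 in limma), without overlap.

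All 8 plasma cell markers were above 0, where 51.3% of all genes were, with a median of 0.40. The direction of all 8 was the same when any of the 8 old arrays was left out, and the median was 0.20 with the replicate number as a block. A single marker had an unadjusted p under 0.05 on the higher side, against 4.20% of all genes. That number was 2 without control replicate 1 or tumour-bearing replicate 3, and 0 without control replicate 4 or tumour-bearing replicate 1 or 2. The marker was Sdc1, the plasma cell surface proteoglycan CD138, with levels from 9.75 to 10.15 in cancer-free and of 10.50, 10.71 and 10.02 in tumour-bearing mice (0.42 ± 0.17, adjusted p = 0.466 in limma). Tumour-bearing replicate 3 lay within the control range. Irf4, a transcription factor that drives plasma cell differentiation, had levels of 9.07, 9.09, 9.05, 8.84 and 9.20 against 9.68, 9.28 and 9.35 (0.39 ± 0.20), without overlap. Mzb1, a chaperone of antibody secretion, differed by 0.64 ± 0.37, and Tnfrsf17, the receptor BCMA, by 0.66 ± 0.39. The list mean of cancer-free replicate 4, 8.61, was lower than those of the other 4 controls, 9.13 to 9.46, and the tumour-bearing means were 9.65, 9.66 and 9.45. The lowest of these lay below the highest control, 9.46. The unfolded protein response, which secretory cells run at a high rate, had 10 of 15 genes above 0 and a median of 0.09. The endoplasmic reticulum degradation factor Edem1 (0.44 ± 0.19) and the asparagine synthetase Asns (0.74 ± 0.27) had unadjusted p under 0.05, Xbp1 differed by 0.37 ± 0.19, and the stress factor Ddit3 by -0.66 ± 0.33. In young mice the median of the plasma cell list was 0.04.

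**Figure D4:**
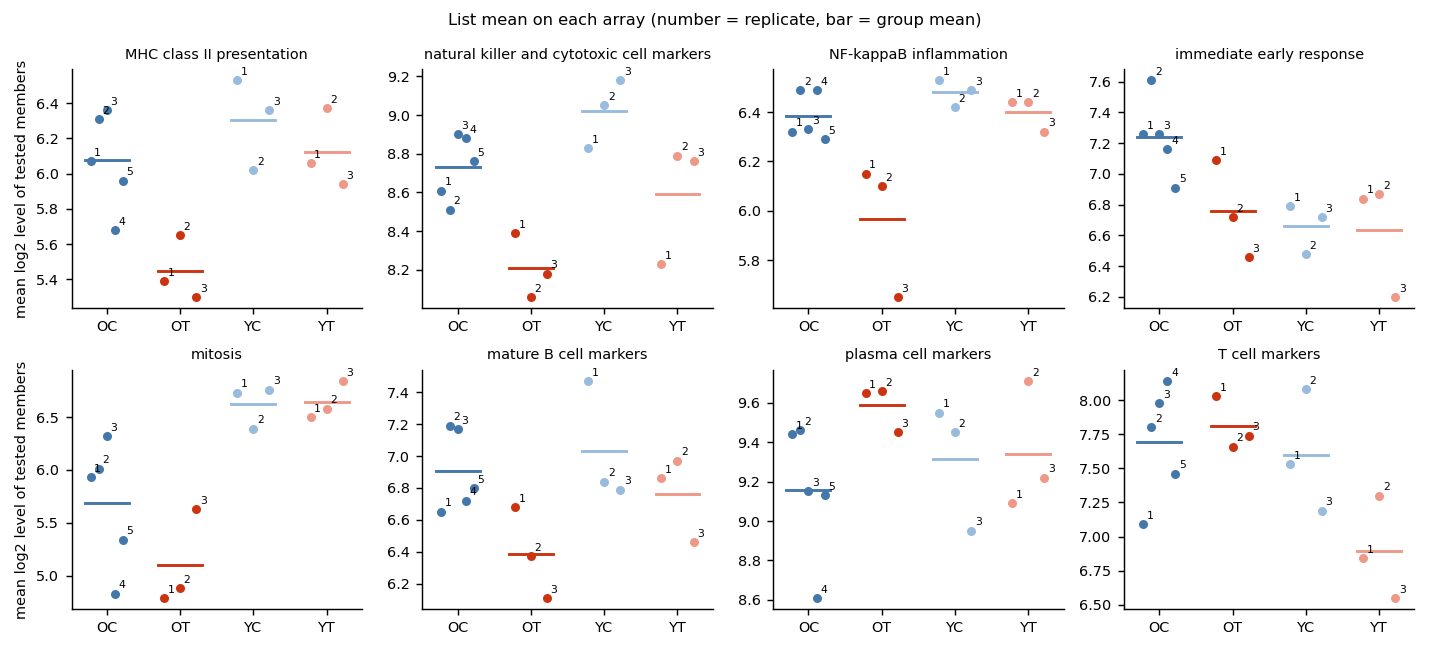
The mean log2 level of the tested members of 8 lists is plotted for each array, numbered by replicate, in old cancer-free (OC), old tumour-bearing (OT), young cancer-free (YC) and young tumour-bearing (YT) mice, with a bar at each group mean. OT lies wholly below OC for the MHC class II, natural killer and NF-kappaB lists, whereas the groups overlap for mitosis, plasma cell and T cell markers. The y axes differ between panels and do not start at 0.

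T cell markers, detected in these mice of an athymic strain, showed no common direction with the tumour in old hosts. Of 13 tested markers 6 were above and 7 below 0, none had an unadjusted p under 0.05 and the median was -0.03. The median was 0.15 without tumour-bearing replicate 2, 0.08 without control replicate 3 and 0.06 without control replicate 4. It moved the other way, to -0.15 and -0.10, without tumour-bearing replicate 1 or control replicate 1. Cd8a had levels of 6.37, 8.06, 8.83, 8.22 and 6.83 in cancer-free and 8.76, 8.71 and 8.33 in tumour-bearing mice (0.94 ± 0.52), and Cd3g, a chain of the T cell receptor complex, 9.35, 10.26, 9.99, 10.72 and 10.37 against 10.09, 9.48 and 9.30 (-0.51 ± 0.32). The control arrays spread widely for Cd8a, from replicate 1 at 6.37 to replicate 3 at 8.83. In young mice 12 of the 13 markers were below 0, with a median of -0.81. For the difference between the ages 12 of 13 were above 0, where 52.4% of all genes were, and 2 had an unadjusted p under 0.05 (background 4.42%). These were Cd8a (1.90 ± 0.79, adjusted p = 0.976 in limma) and Cd5, a T cell coreceptor (1.74 ± 0.79).

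The dendritic and myeloid lists held few genes at an unadjusted p under 0.05. Of 16 plasmacytoid dendritic cell markers 10 were below 0, with a median of -0.16, or -0.03 without control replicate 2. Tlr9, the endosomal sensor of unmethylated DNA, had levels of 7.71, 6.24, 7.11, 5.75 and 6.32 in cancer-free and 5.68, 5.73 and 5.25 in tumour-bearing mice (-1.07 ± 0.38, adjusted p = 0.423 in limma). Mctp2 differed by -1.20 ± 0.34, the transcription factor Spib by -1.40 ± 0.72 and Upb1 by 0.81 ± 0.34. The controls of Spib spread from 3.47 to 6.96, wider than the difference. Conventional dendritic cell markers had a median of 0.09 with 5 of 9 above 0, and the lectin Clec10a (-0.91 ± 0.39) had an unadjusted p under 0.05 at levels around the floor. The conventional dendritic cell median lay between -0.13 and 0.03 when single arrays were left out, and below 0 in 6 of the 8 omissions. Neutrophil markers had 12 of 18 below 0 and monocyte and macrophage markers 7 of 12, with medians of -0.11 and -0.09 and no unadjusted p under 0.05 in either list. Without control replicate 1 these medians were 0.06 and 0.26, and without tumour-bearing replicate 3 they were -0.26 and -0.25. The monocyte median was also 0.25 without tumour-bearing replicate 1. The integrin Itgam had its 3 tumour-bearing arrays, at 4.31, 4.56 and 4.41, just below the controls at 5.20, 4.72, 4.77, 4.62 and 4.69 (-0.37 ± 0.20). The mean of the neutrophil list was highest on control replicate 1, at 6.72 against 5.03 to 6.22 on the other controls, though not every member was. Mmp8, a granule collagenase, stood at 6.93 there against 4.17 to 5.52 on the other controls (-1.01 ± 0.64).

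Markers of other cell types that a marrow sort can hold had small differences, Tfrc apart. Of 13 mesenchymal stromal cell markers on the array 6 were tested, with a median of 0.08 and list means of 3.89 to 4.25 over the 8 old arrays. Endothelial markers had 9 of 13 tested, a median of 0.17 and list means of 4.04 to 4.42. The median was 0.05 without tumour-bearing replicate 3. Pecam1, which leukocytes also carry and which was named after its values were seen, was above the floor with group means of 5.57 and 5.50. Megakaryocyte markers (3 tested) and basophil, mast cell and eosinophil markers (3 tested) had medians of 0.08 and 0.10, the former being -0.07 without control replicate 1 or tumour-bearing replicate 2. Prg2, a granule protein of eosinophils, was well above the floor with group means of 8.79 and 8.89 (0.10 ± 0.37). Of 4 tested erythroid markers the transferrin receptor Tfrc, which all dividing cells carry, was at -1.31 ± 0.42 (unadjusted p = 0.00720, adjusted p = 0.376 in limma) while Klf1, Epor and Slc4a1 were within 0.13 of 0. Stem and progenitor markers had 5 of 7 above 0 and a median of 0.06, with Myb, a transcription factor of progenitors, at means of 6.19 and 5.65 (-0.54 ± 0.36). No member of the stromal, endothelial, megakaryocyte or stem cell lists had an unadjusted p under 0.05.

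Immediate early genes are transcribed within minutes of a stimulus, and most of them had lower mean levels in tumour-bearing mice. Of 24 tested, 22 were below 0 (background 48.7%), and the median was -0.42. On the lower side 8 had an unadjusted p under 0.05 (background 5.56%). Egr1, a zinc finger factor of this class, had levels of 7.91, 8.09, 7.16, 6.56 and 6.77 in cancer-free and 6.71, 5.01 and 5.78 in tumour-bearing mice (-1.46 ± 0.46, adjusted p = 0.360 in limma), with tumour-bearing replicate 1 above control replicate 4. Dusp2, a phosphatase that ends MAP kinase signals, had levels of 6.57, 7.14, 7.23, 7.50 and 6.58 against 6.53, 6.0 and 6.03 (-0.82 ± 0.25), without overlap but with replicate 1 close to the controls. Ier5 (-0.72 ± 0.31) also had no overlap, and the nuclear receptor Nr4a2 (-0.66 ± 0.28) had overlap. The list means were 7.26, 7.61, 7.26, 7.16 and 6.91 on the control and 7.09, 6.72 and 6.46 on the tumour-bearing arrays, and these overlapped. All young arrays lay below the old controls, at 6.48 to 6.79 without and 6.20 to 6.87 with a tumour. Old tumour-bearing replicates 2 and 3 lay within the range of the young arrays. The number with an unadjusted p under 0.05 was 4 without control replicate 1 or 3, 2 without control replicate 2 or tumour-bearing replicate 2, and 3 without tumour-bearing replicate 3. The number below 0 stayed between 17 and 22 over all 8 omissions. In young mice the median was 0.01. For the difference between the ages 21 of 24 genes were below 0 (background 47.6%), with 2 at an unadjusted p under 0.05 (background 4.42%). The 2 were Dusp2 and Klf4, a zinc finger factor named after its values were seen. The heat shock response had 8 of 11 genes below 0, a median of -0.13 and no unadjusted p under 0.05, and the median was 0.13 without tumour-bearing replicate 2.

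NF-kappaB targets of inflammation had 11 of 13 genes below 0 (background 48.7%) and a median of -0.37. Tnf, the cytokine tumour necrosis factor, had levels of 7.16, 8.03, 7.06, 7.51 and 6.59 in cancer-free and 6.44, 5.69 and 6.17 in tumour-bearing mice (-1.17 ± 0.32, adjusted p = 0.295 in limma). Ccl4, a chemokine of activated lymphocytes and macrophages, had levels of 6.41, 7.39, 7.52, 6.55 and 6.20 against 5.28, 6.05 and 5.47 (-1.21 ± 0.36, adjusted p = 0.334 in limma). Birc3, an inhibitor of apoptosis, had levels of 7.03, 7.74, 7.13, 7.26 and 7.44 against 6.78, 6.52 and 6.60 (-0.69 ± 0.25). None of the 3 genes had overlap between the groups. The neutrophil chemokine Cxcl1 went the other way, at 3.33, 3.43, 4.01, 3.23 and 3.14 against 4.05, 4.25 and 4.30 (0.78 ± 0.22), but around the floor. The list mean was 6.15, 6.10 and 5.65 on the tumour-bearing arrays, below all controls (6.29 to 6.49). Without tumour-bearing replicate 3 the number below 0 was 7 of 13 and the median -0.11. Tnf, Ccl4 and Birc3 were below 0 in young mice too, at -0.66, -0.71 and -0.12, and the median of the list there was -0.12. Type I interferon genes (7 of 10 below 0, median -0.27) and interferon gamma genes (8 of 9 below 0, median -0.25) had no member with an unadjusted p under 0.05. The share of all genes below 0 was 48.7%. Without control replicate 4 the 2 medians were -0.13 and -0.12, and the stricter filter left 4 type I genes with a median of -0.04. In young mice 9 of 10 type I and 8 of 9 interferon gamma genes were below 0 (background 52.8%). Their young medians, -0.35 and -0.46, lay farther below 0 than those of old mice.

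Mitosis genes were below 0 in all 19 tested members (background 48.7%), with a median of -0.45. Of these, 4 had an unadjusted p under 0.05 (background 5.56% on the lower side). The protein Ndc80 links the kinetochore to the spindle, and its gene had levels of 4.99, 7.40, 6.43, 4.29 and 5.28 in cancer-free and 3.61, 4.66 and 3.60 in tumour-bearing mice (-1.72 ± 0.57, adjusted p = 0.399 in limma). Control replicate 4 lay among the tumour-bearing arrays. Its partner Nuf2 had levels of 5.17, 6.04, 5.56, 4.61 and 5.01 against 4.36, 3.48 and 5.08 (-0.97 ± 0.36). Ccna2, the cyclin of S phase and mitotic entry, had levels of 7.20, 6.96, 7.75, 5.82 and 5.94 against 5.44, 4.95 and 6.82 (-1.0 ± 0.46), and Kif23, a kinesin of cytokinesis, differed by -0.80 ± 0.32. The groups overlapped for all 19 genes. The list means show how: control replicates 1 to 3 stood at 5.93, 6.01 and 6.32 and replicates 4 and 5 at 4.83 and 5.34, while the tumour-bearing arrays stood at 4.79, 4.88 and 5.63. The number with an unadjusted p under 0.05 was 9 without control replicate 4 or tumour-bearing replicate 3, 2 without control replicate 3 and 1 without tumour-bearing replicate 2. At least 16 of the 19 were below 0 in all 8 omissions, and the median was -0.86 without tumour-bearing replicate 3 and -0.70 without control replicate 4. All 6 young arrays lay higher, with list means from 6.39 to 6.84, and the young median was 0.05. For the difference between the ages 17 of 19 were below 0 (background 47.6%) and 2, Ndc80 and Nuf2, had an unadjusted p under 0.05 (background 4.42%).

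DNA replication genes had 14 of 17 below 0 (background 48.7%) and a median of -0.22. On the lower side 4 had an unadjusted p under 0.05 (background 5.56%). Mcm4, a subunit of the replicative helicase, had levels of 7.08, 6.82, 7.55, 6.70 and 6.74 in cancer-free and 6.29, 6.50 and 6.58 in tumour-bearing mice (-0.52 ± 0.19, adjusted p = 0.435 in limma). Hells, a chromatin remodeller of dividing cells, had levels of 5.20, 5.16, 6.29, 5.11 and 5.61 against 4.57, 5.0 and 4.83 (-0.67 ± 0.25). Neither gene had overlap, whereas Pola1, a DNA polymerase (-0.58 ± 0.20), and Pcna, a sliding clamp of DNA replication (-0.51 ± 0.20), did. Without tumour-bearing replicate 1 the number with an unadjusted p under 0.05 was 1, and without replicate 3 all 17 were below 0, with a median of -0.49. The median was -0.07 without control replicate 2 or 3 or tumour-bearing replicate 2. In young mice it was -0.20. The p53 targets had 5 of 9 above 0 and a median of 0.08, which was -0.09 and -0.08 without tumour-bearing replicate 1 or 3. The cell death gene Pmaip1 had levels of 4.98, 5.0, 4.31, 4.35 and 4.48 against 5.08, 6.0 and 6.0 (1.07 ± 0.43, adjusted p = 0.464 in limma), without overlap, and it differed by 1.22 ± 0.48 in young mice.

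Genes of metabolism and protein synthesis mostly stayed near 0 as groups, with single members apart. Oxidative phosphorylation had 13 of 22 genes above 0 and a median of 0.14. The median was 0.02 without tumour-bearing replicate 3, 0.03 without control replicate 4, 0.04 without control replicate 5 and -0.12 with the replicate number as a block. Uqcrc1, a core subunit of respiratory complex III, had levels of 7.17, 7.16, 8.02, 7.16 and 7.56 in cancer-free and 8.30, 8.22 and 8.09 in tumour-bearing mice (0.79 ± 0.23, adjusted p = 0.334 in limma). Ndufs3, of complex I, had levels of 5.12, 5.48, 5.58, 5.23 and 5.11 against 6.01, 5.89 and 5.72 (0.57 ± 0.19). Neither gene had overlap between the groups. In young mice the median was -0.25. The list means there were 8.20, 8.26 and 8.07 without and 7.40, 8.13 and 8.16 with a tumour. Young tumour-bearing replicate 1 thus stood apart from the other young arrays. For the difference between the ages 19 of 22 genes were above 0 (background 52.4%). Ndufs3 alone had an unadjusted p under 0.05 for it (background 4.42%). Glycolytic enzymes had a median of -0.08, or 0.09 without tumour-bearing replicate 1 and 0.01 without replicate 2, with the phosphofructokinase Pfkp at -0.58 ± 0.20 and without overlap. Sterol synthesis and uptake had 5 of 11 above 0 and a median of -0.07, which was 0.03 without tumour-bearing replicate 2, 0.02 without control replicate 4 and -0.19 without tumour-bearing replicate 1. Within it enzymes of the same pathway stood on opposite sides, with Hmgcs1 at -1.51 ± 0.30 and the farnesyl diphosphate synthase Fdps at 0.78 ± 0.34. The lysosome list had 10 of 16 above 0 and a median of 0.07, with the glucosidase Gaa at 0.55 ± 0.21 and the cathepsin Ctsz at 0.59 ± 0.26. The list mean of the lysosome genes was 7.93 to 8.06 on the tumour-bearing arrays and 7.78 to 8.09 on the controls.

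Cytosolic ribosomal proteins had a median of -0.01 with 10 of 21 above 0. Rpl3 differed most, at -2.15 ± 0.77, with controls of 10.32, 10.21, 10.18, 9.88 and 9.40 and tumour-bearing arrays of 9.82, 8.73 and 5.0. Tumour-bearing replicate 3 alone set most of that difference. Ribosome biogenesis had 7 of 18 above 0 and a median of -0.11, although it holds Nop16. Of its other genes with an unadjusted p under 0.05, Nolc1, a nucleolar phosphoprotein, was at 0.54 ± 0.23, while Nop56, a core protein of small nucleolar particles, and Rrs1, an assembly factor, were at -0.76 ± 0.32 and -0.77 ± 0.30. Chemokines and their receptors had 6 of 13 above 0 and a median of -0.09, with no unadjusted p under 0.05, and the median was 0.10 and 0.07 without control replicate 1 or 4.

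**Figure D5:**
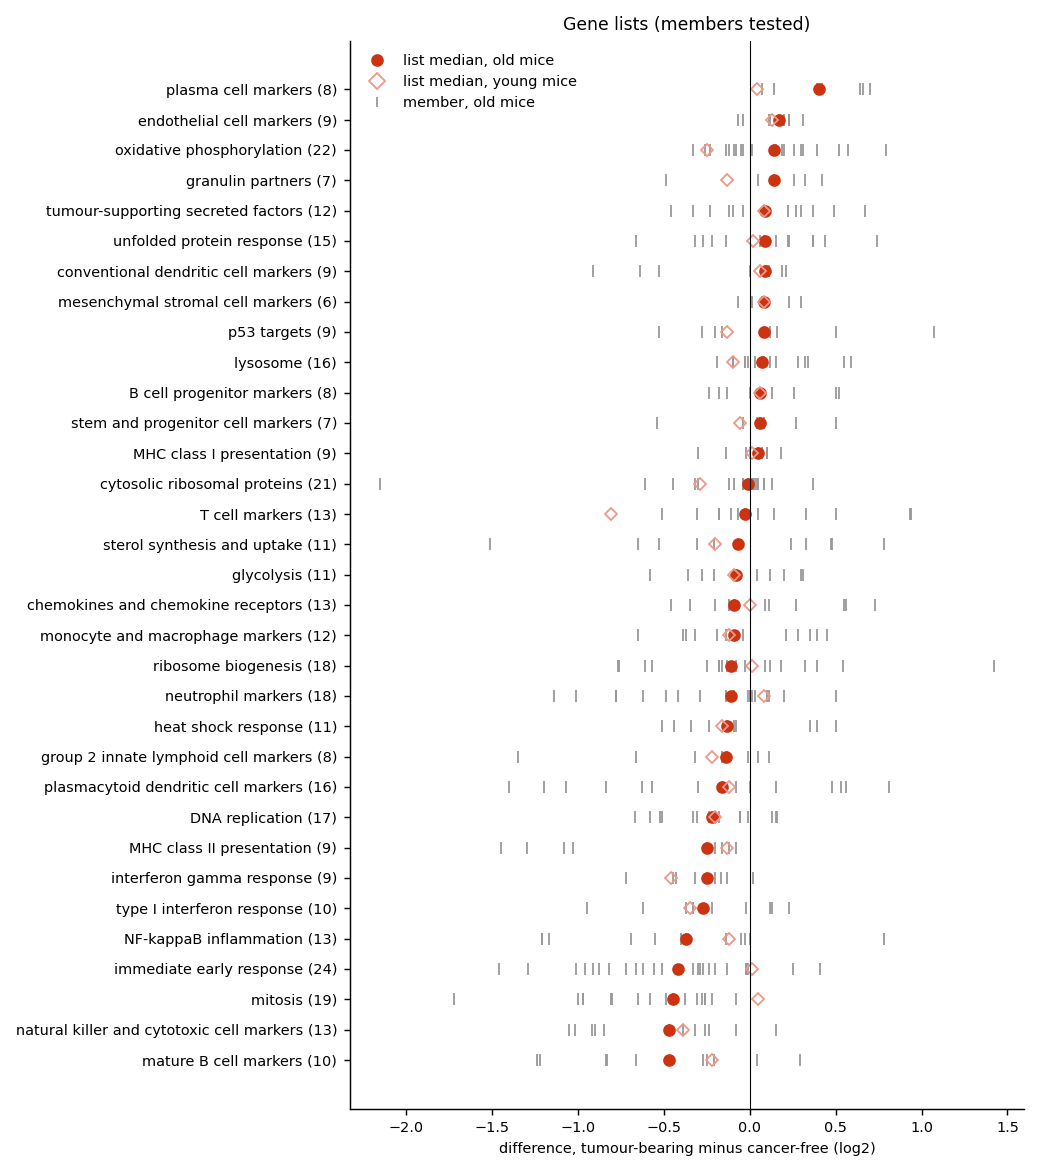
For each of 33 lists with at least 5 members tested (number in brackets), grey ticks are the log2 differences of the members in old mice, the filled point is their median and the open diamond the median in young mice. The list medians of old mice run from -0.47 for mature B cell and natural killer markers to 0.40 for plasma cell markers. The open diamond of T cell markers lies farthest left, at -0.81.

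Over the 33 lists with at least 5 members tested, 2 (MHC class II and mitosis) had every member below 0 and 1 (plasma cell markers) had every member above 0. No list held a gene with an adjusted p under 0.05 in limma. The list counts describe genes that move together within a sample and were read against the shares over all genes tested, without a test of the list.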

How the data were processed

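The deposited table held log2 values of 41345 probes on 14 one-colour arrays, normalised by RMA with oligo 1.32.0 in R 3.2.0, per the submitters' processing notes. RMA makes the arrays' distributions alike, so a change common to all genes would be removed. The sources used here do not give which arrays were normalised together. The RNA of sorted cells was amplified from a picogram amount before labelling, per the labels' protocols.

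Probes with exactly 1 gene symbol in the platform annotation (23521) were kept, 1814 with several symbols and 16010 with none were left out, and the probe with the brightest mean stood for each of the 1082 genes that had several. Levels were not compared between genes. limma 3.58.1 in R 4.3.3 fitted the 4 group means to all 14 arrays with eBayes (10 residual and 3.86 prior degrees of freedom), and Benjamini-Hochberg adjustment ran over the 13805 genes tested. The procedure was tested on simulated data. Named are the 12 genes of smallest p in each direction, the 5 for the difference between ages, up to 4 of smallest p in each list, and Ptprc, Kit and Grn, without predicted genes and receptor families of smell and taste. The 36 lists hold 522 genes, of which 469 were on the array and 423 were tested. The comparison, the lists and their members were chosen with earlier results of these data known. Alternatives were other filters, probe averaging, median centring, cyclic loess, array weights, a trended robust prior, the old arrays alone, the replicate block and leaving out each array.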

Additional observations from a re-analysis of the deposited data

Results flagged for a closer look

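In 63 groups of 5 old cancer-free values examined, 6 had a sample whose gap to the nearest of the others took more than 0.71 of the range, which chance alone gives in about 1 in 20 groups. For Nat10, replicate 4 stood at 6.08 above the next at 5.65, and for Tnfrsf13b, replicate 3 stood at 6.14 below the next at 6.64. The mean of the monocyte and macrophage markers was 7.46 in replicate 1 against 6.63 in the next, and the mean of the lysosome genes was 8.09 in the same mouse against 7.82. The mean of the heat shock genes was 7.63 in replicate 2 against 7.12, and the mean of the sterol genes was 5.47 in replicate 5 against 5.68. Groups of 3 were not examined in this way.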

How the results depend on the processing

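The 24 genes of smallest p in old mice had the same sign of difference under all alternatives run, of which there were up to 23. They were picked for this difference and had no overlap between the groups. Leaving out 1 array therefore could not turn their sign. Genes past an adjusted p of 0.05 for the tumour in old mice numbered 0 to 4 when each array was left out, and 1 passed an adjusted p of 0.1. B3gnt5 stood at -1.71 (adjusted p = 0.0495 in limma) without old cancer-free replicate 3 and at -1.80 (adjusted p = 0.0113) without replicate 5, and Adgrl2 at 1.58 (adjusted p = 0.0481) without old tumour-bearing replicate 1. Of all genes, 1267 were on the higher side at an unadjusted p under 0.05 without the filter (22180 tested) and 245 with a stricter one (7395 tested), and leaving out single arrays gave 489 to 650 higher and 602 to 861 lower. No gene passed for the difference between the ages under any alternative run. Of 36 list medians, 17 kept their sign under all alternatives and 19 took the other sign under at least 1. The stricter filter kept 6 MHC class II genes, with a median of -1.06. With 3 tumour-bearing arrays of amplified RNA, signal near the floor and the spread of single arrays limit what can be called.

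The replicate numbers of the labels gave no sign of pairing between the arrays. Same-numbered arrays of different groups had correlations of deviations from -0.08 to 0.09 over 18 pairs, and different-numbered arrays from -0.13 to 0.10. With so few arrays in a group this check cannot exclude pairing. With the replicate number as a block, 0 genes passed, 457 were on the higher and 574 on the lower side at an unadjusted p under 0.05, and B3gnt5 stood at -1.73 (adjusted p = 0.227 in limma). The block median of the NF-kappaB list was -0.21.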

Other observations

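Some of the largest differences in old mice lay outside the genes named by p, and the genes of this paragraph were named after their values were seen. Ctla2b, an inhibitor-like protein of cathepsins first found in cytotoxic T cells, had levels of 7.15, 7.12, 6.73, 7.28 and 7.43 in cancer-free and 4.34, 5.32 and 2.66 in tumour-bearing mice (-3.04 ± 0.66, adjusted p = 0.197 in limma). Its controls were tight and its tumour-bearing arrays spread widely, and near-identical family members may share its probe. Stfa2l1, of the stefin family of cysteine protease inhibitors, had levels of 5.52, 5.50, 6.04, 7.93 and 5.05 against 3.37, 3.98 and 3.18 (-2.50 ± 0.54, adjusted p = 0.197 in limma), with a tumour-bearing mean under the floor. Tigit, an inhibitory receptor of T and natural killer cells, had levels of 6.23, 6.74, 7.38, 6.90 and 6.29 against 5.96, 3.93 and 4.01 (-2.08 ± 0.51), and Klri2, a lectin-like receptor gene of natural killer cells, differed by -2.13 ± 0.61. None of these 4 had overlap between the groups. On the higher side, Rpl34, a cytosolic ribosomal protein outside the list described above, had levels of 5.56, 6.88, 7.04, 5.64 and 4.14 against 7.50, 7.46 and 8.46 (1.95 ± 0.66, adjusted p = 0.414 in limma). Its groups did not overlap, and in young mice it differed by -1.37 ± 0.74. Cyp2b10, a cytochrome P450, differed by 1.54 ± 0.41 without overlap, with controls around the floor, from 3.13 to 4.81. Cd59a, an inhibitor of complement, differed by 1.65 ± 0.59 with overlap. A large difference alone did not separate the groups, since Rabggtb had the most negative value of all, -3.35 ± 1.27, with controls from 1.78 to 8.16. Its tumour-bearing mean, 1.46, was under the floor, so that difference is not an exact size.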
